A study of Saccharomyces cerevisiae with 6 samples.

Results

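Cytosolic ribosomal protein genes encode the proteins that, with ribosomal RNA, build the large (RPL) and the small (RPS) subunit of the ribosome that translates nuclear messages. They were taken as all probe sets whose annotated gene symbol is RPL or RPS followed by digits and an optional A or B, with nothing after it. The rule found 142 probe sets for 122 of the 5449 genes tested, 70 of the large and 52 of the small subunit. Where a gene had a pair of probe sets, the one with the higher mean over the 6 arrays stood for it. Gene table R64 of budding yeast holds 132 symbols of this form. The other 10 were not analysed here.

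The arrays were Affymetrix Yeast Genome 2.0 arrays of total RNA from the Saccharomyces cerevisiae strain 26972c, 3 with GmbHLHm1 in the vector pYES3 and 3 with the empty vector pYES3. GmbHLHm1 (SAT1) encodes a basic helix-loop-helix transcription factor of soybean and was placed behind a promoter that galactose switches on. Every culture, the controls included, carried the mep1-1 mutation and the mep2 deletion, which leave MEP3 as the ammonium permease gene without a listed mutation, and was ura-. All were pre-grown on glucose and proline, then moved for 12 h to medium with 2% galactose and 1 mM ammonium. Tubes were inoculated from starter cultures, and the labels do not say that each array came from its own transformant, so the p-values cover no more than the spread among these 6 samples. The deleted MEP2 read 12.4 to 16.1 in intensity on GmbHLHm1 arrays and 18.6 to 20.0 on empty vector arrays, all below the background level of 23.2 to 26.9, the 95th percentile of probe sets whose gene IDs are outside the S. cerevisiae gene table.

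In budding yeast most ribosomal proteins come from a pair of genes, called A and B, kept from an ancient duplication of the genome, and the paralogous proteins are nearly or wholly alike. In growing cells these genes are transcribed together, through promoters bound by Rap1, Fhl1 and Ifh1 and under the control of TOR and protein kinase A. The set is known for moving as a block when nutrients or stress change growth. Some members also limit their own messages through splicing or decay. Values below are log2 signals of the deposited intensities unless stated otherwise, and a log2 change is the GmbHLHm1 mean minus the empty vector mean. Signals of different probe sets are not compared as transcript levels, since each set responds differently to its target.

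The ribosomal protein genes centred on a change of 0 between GmbHLHm1 and empty vector cells, with 88.5% of them within 0.1 log2 units of it. None of the 122 passed the test (limma, Benjamini-Hochberg over all 5449 genes, adjusted p under 0.05), where 12.1% of all genes passed, 7.45% higher and 4.64% lower. The smallest adjusted p of a member was 0.0621, for RPS7B. Before adjustment, limma gave 5 members a p under 0.05, 3 higher and 2 lower, or 4.10%, against 26.9% of all genes tested. With limma's array weights RPS7B and RPL22B passed, at adjusted p = 0.0429 and 0.0487, where 15.1% of all genes passed. With its trend and robust prior these and RPL4B and RPL8A passed, at adjusted p between 0.0319 and 0.0464, where 15.0% of all genes passed. The median log2 change was -0.004 over the members and 0.02 over all genes tested. Of the members 60 had a positive and 62 a negative change. The middle 50% of the members lay between -0.04 and 0.04, while that of all genes tested ran from -0.06 to 0.11. Changes were under 0.1 in size for 108 members and for 55.3% of all genes.

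The median standard error over the members was 0.047 on the log2 scale. For all 122 the 95% interval of the log2 change, taken gene by gene without adjustment, lay within ±0.5, and for 111 it lay within ±0.25. GmbHLHm1 and empty vector values were apart, with no overlap, in 19 members, 14 higher and 5 lower, which is 15.6%. Over all genes tested that share was 33.2%, with 19.3% higher and 13.9% lower. The median SD among GmbHLHm1 arrays was 0.047 for the members and 0.088 for all genes, and among empty vector arrays it was 0.032 and 0.050. For the 409 other bright genes described below the median SDs were 0.047 and 0.028, and the median standard error was 0.047. A spread this small was thus not particular to the members.

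**Figure D1:**
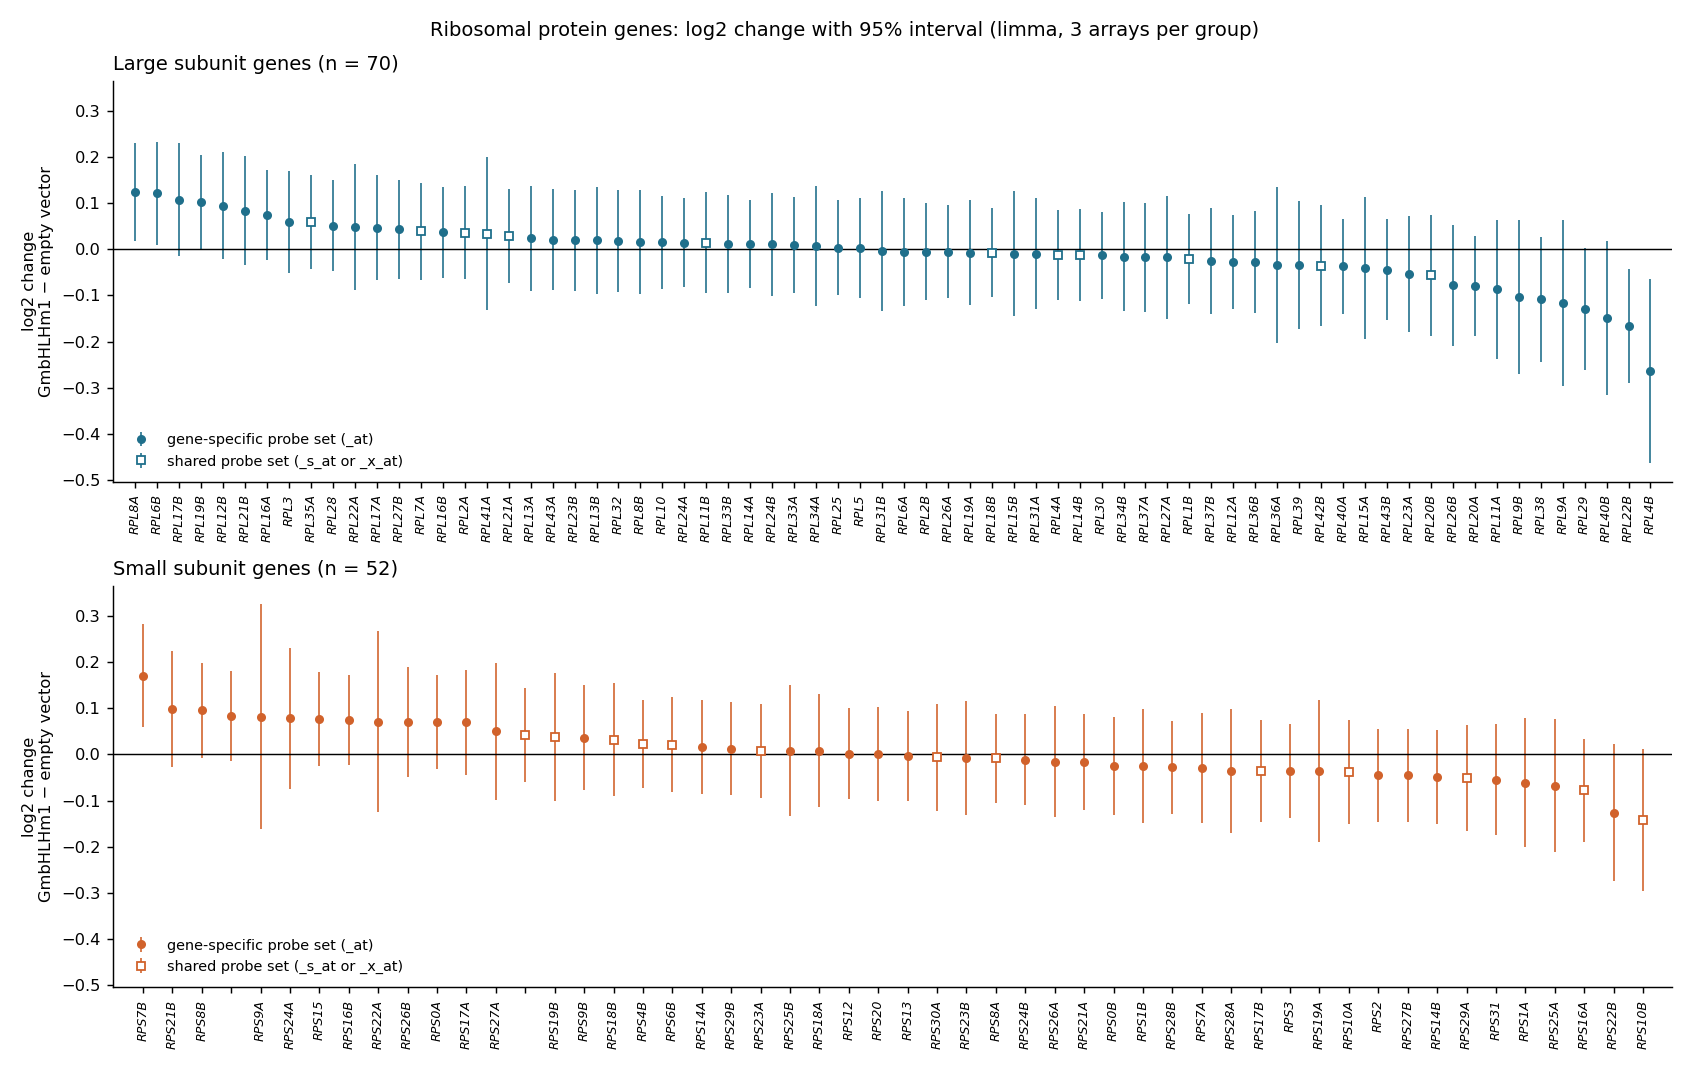
Log2 change (GmbHLHm1 minus empty vector, vertical axis) of each of the 70 large (top) and 52 small subunit genes (bottom), ordered by change, with the limma 95% interval. Filled circles are gene-specific probe sets and open squares shared ones; the changes run from -0.26 for RPL4B to 0.17 for RPS7B, and most intervals cross 0.

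Ribosomal protein probe sets were among the brightest on the arrays. The mean log2 signal of 95 members lay above the 90th percentile of the tested genes, at 12.70, and all 122 were above background on every array. The exception in brightness was RPL41A, the gene of a very short peptide of the large subunit, with 6.14, 5.91 and 6.09 on GmbHLHm1 arrays and 5.98, 6.08 and 5.97 on empty vector arrays. It was the single member under the median signal of the tested genes, and its groups overlapped. Other bright genes did pass the test. Of 409 other genes at least as bright as the lower quartile of the members, a group formed after the values were seen, 47 rose and 35 fell, or 20.0%. In 57.2% of the 409 the groups did not overlap, 93 higher and 141 lower. Their median log2 change was -0.03, with 150 positive and 259 negative. The highest signal of a member on any array was 14.18, against 14.79 over all probe sets.

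The large and the small subunit gave like values. The median log2 change was -0.005 over the 70 large subunit genes, with a range of -0.26 to 0.12. It was -0.001 over the 52 small subunit genes, with a range of -0.14 to 0.17. Per array, the median deviation of the large subunit genes from their empty vector means was 0.030, -0.034 and 0.013 for GmbHLHm1 replicates 1, 2 and 3, and -0.005, 0.026 and -0.022 for empty vector replicates 1, 2 and 3. The same medians for the small subunit genes were 0.039, -0.034 and -0.001 on the GmbHLHm1 arrays and -0.009, 0.021 and -0.014 on the empty vector arrays. In every array both subunits thus lay on nearly the same level. The within-array gap, large minus small, was between -0.009 and 0.014 on GmbHLHm1 arrays and between -0.008 and 0.006 on empty vector arrays, and the ranges overlapped.

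What the members did share was their order among the arrays of a group. In 93 of 122 members, or 76.2%, GmbHLHm1 replicate 2 was the lowest of the 3 GmbHLHm1 arrays, against 35.1% of all genes tested. That array was also the lowest of the 3 in most of the translation factor and RNA polymerase I genes described below. Being lowest there was thus not particular to the members. In 82 members, or 67.2%, empty vector replicate 2 was the highest of the empty vector arrays, against 43.9% of all genes. The median deviation of the 122 members was 0.033, -0.034 and 0.006 on GmbHLHm1 replicates 1, 2 and 3, and -0.006, 0.024 and -0.019 on empty vector replicates 1, 2 and 3. These joint offsets overlapped between the groups.

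**Figure D2:**
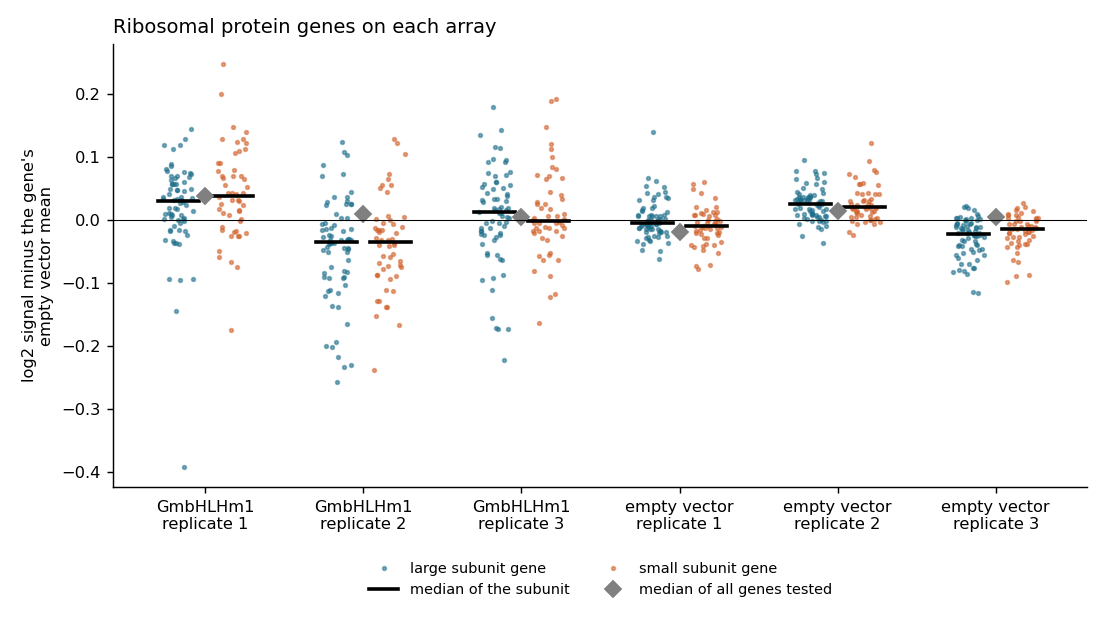
Log2 signal of each ribosomal protein gene minus its own empty vector mean (vertical axis) on the 6 arrays, large subunit genes left and small subunit genes right within an array, with the subunit medians as bars and the median of all tested genes as a diamond. Both subunits move together from array to array, from medians of -0.034 on GmbHLHm1 replicate 2 to 0.039 on GmbHLHm1 replicate 1, and the groups overlap.

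Proteins at the catalytic and tRNA-binding parts of the large subunit had values near 0. RPL3, which reaches the peptidyl transferase centre, read 13.71, 13.70 and 13.79 on GmbHLHm1 arrays and 13.64, 13.70 and 13.68 on empty vector arrays. Its groups just missed each other, with a log2 change of 0.06 ± 0.05 (SE; limma adjusted p = 0.468). RPL10, a protein close to the bound tRNAs that is loaded late in assembly, read 13.97, 13.95 and 13.96 on GmbHLHm1 arrays and 13.91, 13.96 and 13.97 on empty vector arrays. The groups overlapped, and the change was 0.02 with a 95% interval of -0.09 to 0.12. RPL2A and RPL2B, which also serve the catalytic centre, had changes of 0.04 and -0.006.

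Among proteins that line the tunnel through which the new chain leaves or ring its exit, 11 members had a median of -0.006. RPL4B, which together with RPL4A encodes a protein with a loop in the tunnel wall, had the lowest change of all members. It read 10.42, 10.58 and 10.64 on GmbHLHm1 arrays against 10.95, 10.79 and 10.70 on empty vector arrays. All GmbHLHm1 values were below all empty vector values, but the gap between the nearest arrays was small beside the spread within each group. The log2 change was -0.26 ± 0.08 (SE), a fold of 0.832, with a limma adjusted p of 0.0950. RPL17B, at the tunnel rim, had a change of 0.11 and RPL39, inside the tunnel, -0.03, neither past the test.

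RPL5, RPL11A and RPL11B, which form the 5S particle with 5S ribosomal RNA, had changes of 0.003, -0.09 and 0.01. The value of RPL11B came from a shared probe set, and its gene-specific set gave 0.12 without overlap. In the stalk regions that handle tRNA and elongation factors, RPL1B had a change of -0.02, and RPL12A and RPL12B of -0.03 and 0.09. None of these 6 members passed the test.

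Another large subunit member near the edge of the test was RPL22B, whose transcript is held back at splicing by the Rpl22 protein itself. RPL22B read 12.05, 11.92 and 11.98 on GmbHLHm1 arrays against 12.19, 12.11 and 12.15 on empty vector arrays. The groups did not overlap, and the log2 change was -0.17 ± 0.05 (SE; limma adjusted p = 0.0883). Without GmbHLHm1 replicate 1 it passed, at -0.20 with adjusted p = 0.0415, in a fit that called 13.3% of all genes. RPL22B did not pass in the other fits that left out an array (limma adjusted p from 0.147 to 0.277). RPL29, a small non-essential protein of the large subunit, read 13.21, 13.04 and 13.08 on GmbHLHm1 arrays against 13.21, 13.26 and 13.24 on empty vector arrays. Its groups were separate only by the third decimal, with a change of -0.13 ± 0.06 (SE; adjusted p = 0.192). On the other side, RPL8A read 13.23, 13.22 and 13.26 on GmbHLHm1 arrays and 13.17, 13.10 and 13.07 on empty vector arrays, a change of 0.12 ± 0.05 (SE; adjusted p = 0.133). RPL6B read 12.38, 12.34 and 12.45 on GmbHLHm1 arrays and 12.25, 12.29 and 12.27 on empty vector arrays, a change of 0.12 ± 0.05 (SE; adjusted p = 0.155). Both were separate between the groups, and neither passed. A shared probe set of RPL8A gave a change of 0.05, with overlap.

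In the small subunit RPS7B stood highest. One of a pair of genes for the protein Rps7, it read 12.03, 11.96 and 12.02 on GmbHLHm1 arrays and 11.88, 11.83 and 11.80 on empty vector arrays. The groups did not overlap, and the log2 change was 0.17 ± 0.05 (SE), a fold of 1.13 (limma adjusted p = 0.0621). Without GmbHLHm1 replicate 2 it passed, at 0.20 with adjusted p = 0.0499, in a fit that called 13.2% of all genes. RPS7B did not pass in the other fits that left out an array (limma adjusted p from 0.095 to 0.209). RPS21B followed at 0.10 and RPS8B at 0.10. RPS21B overlapped between the groups and RPS8B did not.

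The proteins that grip the message at its entry, RPS2, RPS3 and RPS30A, had changes from -0.04 to -0.007. RPS3 read 13.75, 13.70 and 13.76 on GmbHLHm1 arrays against 13.76, 13.80 and 13.75 on empty vector arrays, with overlap. Of 10 members near the message's exit, RPS0A, RPS0B, RPS1A, RPS1B, RPS14A, RPS14B, RPS26A, RPS26B, RPS28A and RPS28B, 3 had a positive and 7 a negative change, from -0.06 for RPS1A to 0.07 for RPS26B and RPS0A. RPS6B, whose protein is a phosphorylation target of TOR signalling, had a change of 0.02 from a shared probe set. RPS10B, on the head of the subunit, was read by a probe set that may match other transcripts, with 11.93, 12.02 and 11.94 on GmbHLHm1 arrays against 12.07, 12.23 and 12.02 on empty vector arrays. Its groups overlapped slightly and the change was -0.14 ± 0.07 (SE; adjusted p = 0.220), or -0.08 without empty vector replicate 2. Its gene-specific set gave -0.19 without overlap.

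The 3 ubiquitin fusion genes make a ribosomal protein joined to ubiquitin, which is then released. RPS31 had a log2 change of -0.05, RPL40A of -0.04 and RPL40B of -0.15. RPL40B read 13.23, 13.03 and 13.02 on GmbHLHm1 arrays against 13.29, 13.27 and 13.17 on empty vector arrays. Replicate 1 of GmbHLHm1 lay among the empty vector values and the other two below them (limma adjusted p = 0.230). Without that array RPL40B passed, at -0.22 with adjusted p = 0.0410, in a fit that called 13.3% of all genes. It did not pass in the other fits that left out an array (limma adjusted p from 0.272 to 0.492).

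Of 6 members whose proteins limit their own transcripts, a group gathered after the values were seen, 5 had a negative change and none passed the test. RPL30, which blocks splicing of its own message, read 14.03, 14.04 and 14.04 on GmbHLHm1 arrays and 14.04, 14.07 and 14.04 on empty vector arrays. RPS14B, held back by Rps14 at splicing, had a change of -0.05, and RPS28B, whose message is decayed under control of its own protein, of -0.03. RPS9A had 10.86, 10.46 and 10.76 on GmbHLHm1 arrays and 10.53, 10.67 and 10.63 on empty vector arrays. It had the largest SD of any member among GmbHLHm1 arrays, 0.209, and the groups overlapped. The other widest members were RPS22A and RPL9A, with SDs of 0.148 and 0.129.

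The paralogue pairs were compared next, by taking A minus B within each array, which removes any offset that both genes share on an array. A total of 48 pairs had both genes named. Across the pairs the changes of the A and the B gene showed almost no correlation (Pearson r = 0.02 and Spearman rho = 0.03). These values cover 48 pairs measured on the same 6 arrays and are given as a description. The median size of a member's change, 0.035, was below the median standard error, 0.047. An r near 0 therefore cannot show whether the genes of a pair change together. In 26 pairs the A and the B gene differed in sign. The within-array difference did not overlap between the groups in 21 of the 48 pairs, or 43.8%, 9 with A up relative to B and 12 with A down. This share is of differences between a pair of probe sets, and no counterpart over other pairs of genes was computed. For single genes, an unlike measure, the share was 15.6% over the members and 33.2% over all genes. Of the 27 large subunit pairs 9 were separate, and of the 21 small subunit pairs 12. With 3 arrays against 3 an exact permutation test, two-sided, cannot go below p = 0.1, which all 21 reached, so no single pair can pass 0.05 by this test. The median size of the difference was 0.065, against median SDs of 0.047 among GmbHLHm1 and 0.041 among empty vector arrays.

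The 5 pairs that differed most were RPL4, RPL22, RPS7, RPS22 and RPS16. For RPL22, A minus B was 1.05, 1.08 and 1.15 on GmbHLHm1 arrays and 0.83, 0.99 and 0.82 on empty vector arrays. The difference between the groups was 0.22, with RPL22A at a change of 0.05 and RPL22B at -0.17. For RPS7, A minus B was 1.13, 1.10 and 1.03 on GmbHLHm1 arrays and 1.22, 1.33 and 1.31 on empty vector arrays, a difference of -0.20. RPS7B made up most of it, since RPS7A had a change of -0.03.

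For RPS22, another small subunit protein, A minus B was -0.08, -0.07 and 0.11 on GmbHLHm1 arrays and -0.28, -0.12 and -0.23 on empty vector arrays. The difference was 0.20, with RPS22A at 0.07 and RPS22B at -0.13. Without GmbHLHm1 replicate 2 RPS22A was at 0.15 and RPS22B at -0.07, so that array decided which gene had the larger change. For RPL4 it was 3.60, 3.46 and 3.43 on GmbHLHm1 arrays and 3.10, 3.28 and 3.35 on empty vector arrays, a difference of 0.25. RPL4A was read by a shared probe set that may also take up RPL4B, so this pair may not separate the genes. For RPS16, whose protein touches the P-site tRNA, A minus B was 0.09, -0.001 and -0.01 on GmbHLHm1 arrays and 0.20, 0.18 and 0.15 on empty vector arrays, a difference of -0.15. In all 5 pairs the GmbHLHm1 arrays lay to 1 side of the empty vector arrays, but the pairs were picked for a large difference on these same arrays.

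The most even pairs were RPL33 and RPL24, both of the large subunit. RPL33A and RPL33B had changes of 0.009 and 0.01, and RPL24A and RPL24B of 0.01 and 0.01. Their differences between the groups were -0.003 and 0.004, within the spread of either group.

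**Figure D3:**
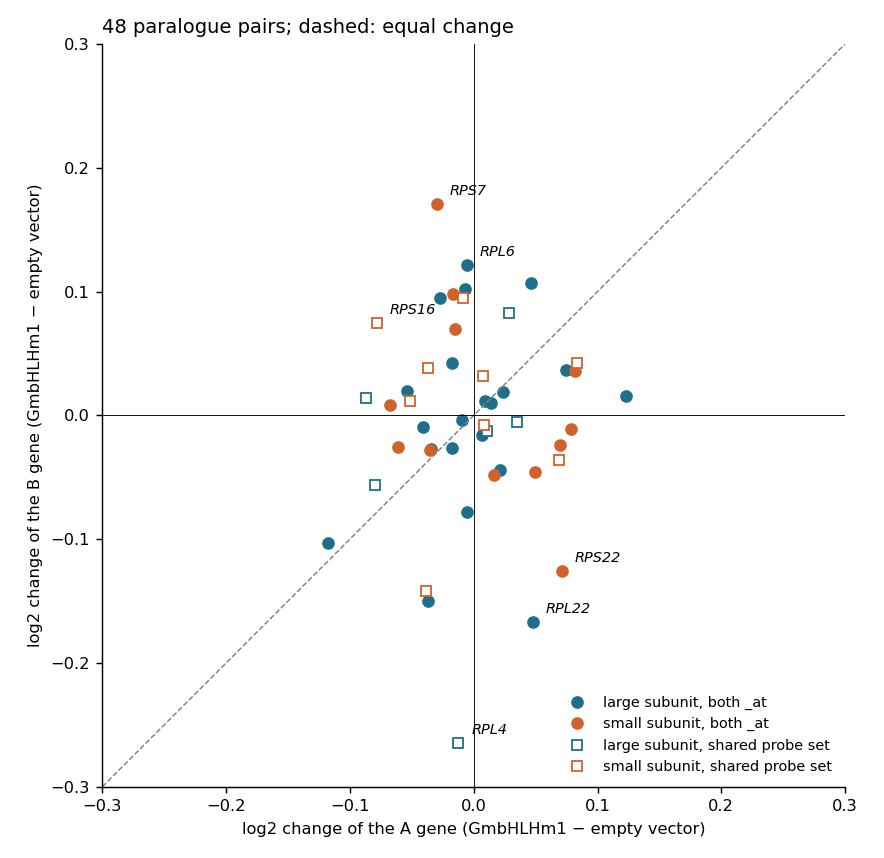
Log2 change (GmbHLHm1 minus empty vector) of the A gene (horizontal) against that of the B gene (vertical) for 48 paralogue pairs, with equal change on the dashed line. Filled circles are pairs read by gene-specific probe sets on both sides, open squares pairs with a shared probe set; the points scatter around the origin with r = 0.02, and RPS7, RPL22, RPS22 and RPL4 lie farthest from the line.

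**Figure D4:**
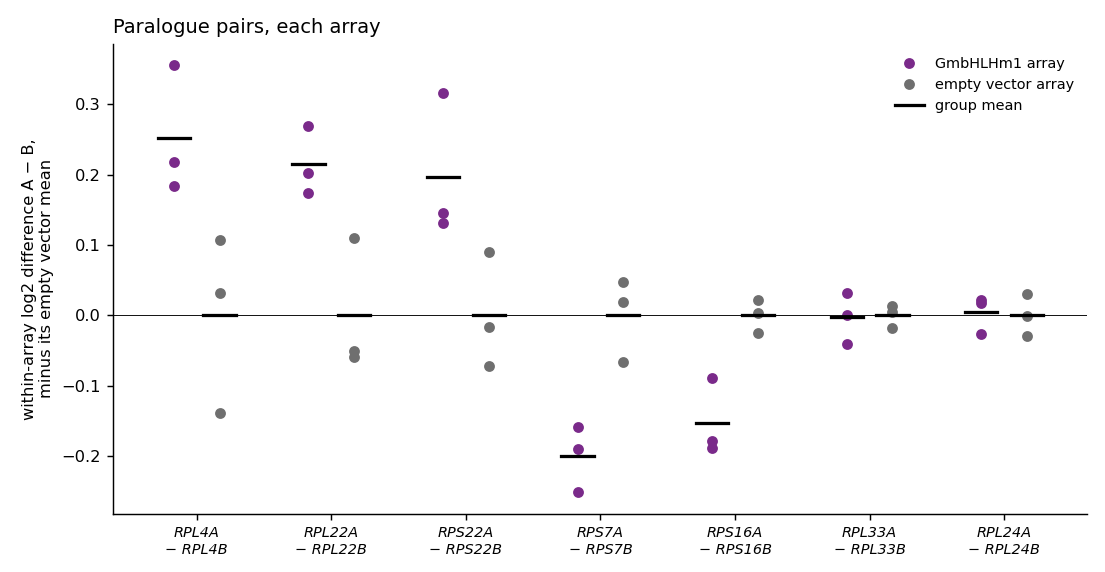
Within-array log2 difference between the A and the B gene, minus its empty vector mean (vertical axis), for the 5 most and the 2 least different pairs, with GmbHLHm1 arrays left and empty vector arrays right of each tick and group means as bars. For RPL4, RPL22, RPS22, RPS7 and RPS16 all GmbHLHm1 points lie to 1 side of the empty vector points, while those of RPL33 and RPL24 overlap. All these pairs were picked by the size of this difference on the same arrays.

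The choice of probe set bears on these pairs. By the maker's naming, an _at set matches a single transcript, an _s_at set is shared by several transcripts, and an _x_at set holds probes that may match others. Which transcripts they share was not determined here. Of the 122 members 97 were read by an _at set, 21 by an _s_at set and 4 by an _x_at set. The 25 on shared sets had changes from -0.14 to 0.06. Groups did not overlap for 1 of them, or 4.0%, and for 18 of the 97 on _at sets, or 18.6%. Both shares were below the 33.2% of all genes tested.

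For 20 members both an _at set and a shared set were present, so the same gene could be read by both. The shared set had the change nearer 0 in 16 of the 20, all but RPL20B, RPS26A, RPS29B and RPS19B. It was also the brighter set in 16 of the 20, not all of them the same genes. Whether the smaller change goes with sharing or with brightness was not tested. The median size of the change was 0.036 by the shared and 0.076 by the _at set. The groups did not overlap for 1 of the 20 shared and 7 of the 20 _at sets, where the share over all genes tested was 33.2%. RPL14B differed most. Its shared set read 14.02, 13.97 and 14.03 on GmbHLHm1 arrays and 14.01, 14.04 and 14.01 on empty vector arrays, a change of -0.01. Its _at set read 12.67, 12.61 and 12.68 on GmbHLHm1 arrays and 12.77, 12.85 and 12.78 on empty vector arrays, a change of -0.15 without overlap. RPL11B, a 5S particle protein gene, had a change of 0.01 by the shared and 0.12 by the _at set, RPS10A of -0.04 and -0.15, and RPS24A of -0.03 and 0.08.

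With _at sets alone, 47 pairs could be formed and 20 were without overlap, of which 18 were also among the 21 above. RPL14 and RPS23 entered. RPL4 was among those that left, because RPL4A has no _at set here. The pair that differed most was then RPL22, at 0.22, and RPL11 came to -0.20. A minus B for RPL11 was -0.55, -0.64 and -0.58 on GmbHLHm1 arrays and -0.32, -0.40 and -0.45 on empty vector arrays. RPL11A was at -0.09 and RPL11B at 0.12, so these genes lay on opposite sides of 0.

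**Figure D5:**
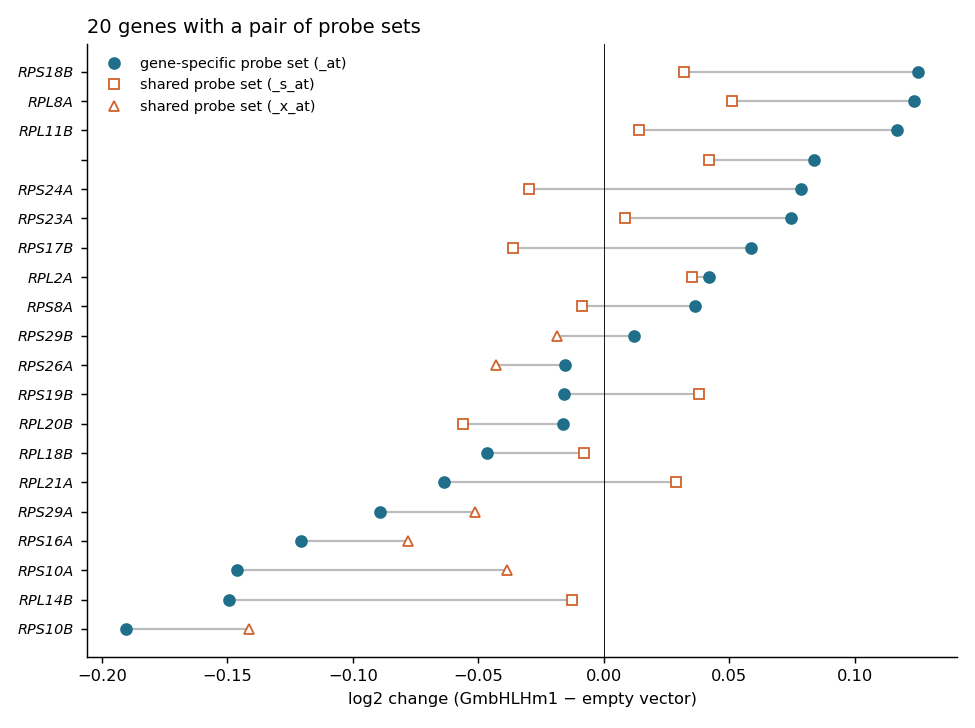
Log2 change (GmbHLHm1 minus empty vector, horizontal axis) of the 20 members with a pair of probe sets, with the gene-specific set as a filled circle and the shared set as an open square (_s_at) or triangle (_x_at). The gene-specific values run from -0.19 to 0.13 and the shared ones from -0.14 to 0.05, nearer 0 in 16 genes.

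Genes around the ribosomal proteins were described from lists chosen with earlier results of these arrays known. Of 9 ribosome parts outside the symbol rule none passed the test, with a median log2 change of -0.02. The acidic stalk genes RPP0, RPP1A, RPP1B, RPP2A and RPP2B had changes between -0.06 and 0.02, and ASC1, a scaffold on the small subunit's head, had -0.03. Of 17 chaperones of ribosomal proteins and ribosome assembly factors none passed (none at an unadjusted p under 0.05), with a median of 0.05. SQT1, the chaperone of Rpl10, had a change of 0.18 and ACL4, that of Rpl4, of -0.08.

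Of 26 regulators of ribosomal protein genes 1, CRF1, rose and none fell, and the median was 0.001. That is 3.85% higher, against 7.45% of all genes. CRF1, which encodes a corepressor that can displace Ifh1 from Fhl1, read 10.44, 10.69 and 10.40 on GmbHLHm1 arrays and 10.14, 10.18 and 10.16 on empty vector arrays. All GmbHLHm1 values were above the empty vector values, and the change was 0.35 ± 0.08 (SE; limma adjusted p = 0.0307). It kept its call when each GmbHLHm1 array was left out and lost it when each empty vector array was, at adjusted p = 0.123, 0.0959 and 0.101 for replicates 1, 2 and 3. RAP1, FHL1, IFH1 and SFP1, which activate these genes, had changes of 0.14, 0.10, 0.02 and -0.03, none past the test (adjusted p = 0.118, 0.497, 0.922 and 0.762).

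Of 29 translation factor genes ANB1 and HCR1 rose and none fell, with a median of -0.006. That is 6.90% higher, near the 7.45% of all genes. ANB1, the form of eIF5A made in low oxygen, had a change of 0.22 ± 0.05 (SE; limma adjusted p = 0.0406), and its partner HYP2, made in air, one of -0.12 ± 0.04 (SE; adjusted p = 0.129). HCR1, an eIF3 partner, had a change of 0.18 ± 0.05 (SE; adjusted p = 0.0487). ANB1 kept its call in 1 of the 6 fits that left out an array, that without GmbHLHm1 replicate 2, and its adjusted p reached 0.155 in the others. HCR1 kept it in none, with adjusted p between 0.0603 and 0.178.

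Of 15 genes of RNA polymerase I and its factors, which make the large ribosomal RNAs, 1, RRN9, a part of the upstream activating factor, rose and none fell, with a median of 0.10. That is 6.67% higher, also near the share of all genes. RRN9 had a change of 0.30 ± 0.08 (SE; limma adjusted p = 0.0474) and, of the 6 fits that left out an array, kept its call only in that without GmbHLHm1 replicate 2, its adjusted p reaching 0.157 in the others. The 16 control sets of 18S and 25S ribosomal RNA averaged 8.27, 7.89 and 7.83 on GmbHLHm1 arrays. On empty vector arrays they averaged 9.15, 9.46 and 8.80, so the GmbHLHm1 averages were lower without overlap. Set by set, 13 of the 16 were lower without overlap, and log2 changes ran from -2.88 to -0.28. Whether the signal of these control sets follows the amount of ribosomal RNA in the cells was not tested. The 5.8S probe set read 11.78, 11.62 and 11.72 on GmbHLHm1 arrays and 11.87, 11.91 and 11.63 on empty vector arrays, with overlap. The gap in 18S and 25S signal was thus not matched by one in the messages of the proteins that bind these RNAs, and whether it bears on them was not tested.

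For comparison, 43 mitochondrial ribosomal protein genes, taken by the symbol MRPL or MRPS and digits, had a median log2 change of 0.10, with 40 positive, or 93.0%, against 56.7% of all genes. Of these 4 rose and none fell, or 9.30% higher, near the 7.45% of all genes, and 23.3% had groups that did not overlap, against 33.2%. Their 95% intervals lay within ±0.25 for 20 genes. The difference between the cytosolic and the mitochondrial set was not tested.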

How the data were processed

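The authors deposited linear intensities made with RMA, per the submitters' processing notes; the software version is not given in the sources used here. They ran from 5.00 to 28314, and log2 was taken here from the deposited intensities. Of 10928 probe sets 7244 had 1 gene symbol, 1 had several and 3683 were unnamed (controls included), and 5498 matched gene table R64, used for names only. Groups came from the labels. All 5449 genes were fitted in R 4.3.3 by limma 3.58.1, through lmFit and eBayes, with neither filter nor block. P-values were two-sided, adjusted over all genes by Benjamini-Hochberg, and called at 0.05. The fit was tested on simulated data. RMA makes the arrays' distributions alike, so a shift of all transcripts would not be seen. The number of arrays limits the precision.

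Named members were drawn from the 6 highest and 6 lowest changes, the 3 smallest p and the 3 largest SDs. They also came from the most and least different pairs, members with a pair of probe sets, and a few by role. Not every gene of these sets is named in the text. Other named members, and the role groups, were chosen after their values were seen. The members, lists and rules were chosen with earlier results of these arrays known. Promoter and protein sequences were not analysed here, and some genes are not reported by name and stand without a label in the plots. Alternatives were a replicate block, other normalizations, a filter on dim genes, array weights, other variance settings and thresholds, other probe set choices, and leaving out each array. Figures used matplotlib 3.10.9 in Python 3.11.15.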

Additional observations from a re-analysis of the deposited data

How the results depend on the processing

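The count of 0 ribosomal protein genes past the test held under most alternatives. It was 2 with array weights (RPL22B and RPS7B) and 4 with a trend and robust prior (RPL22B, RPL4B, RPL8A and RPS7B). At a threshold of 0.10 it was 3 of the 122 members, where the genes past the test include the 12.1% of all genes that passed at 0.05. When an array was left out it was between 0 and 2. Over all genes the 659 calls became 823 with array weights, 820 with the trend and robust prior, 284 without moderation, 243 at a threshold of 0.01, and between 251 and 723 when an array was left out. With the replicate block 427 of all genes and 0 of the 122 members passed. Same-numbered arrays deviated from their group means with correlations of -0.065, -0.082 and 0.141 for replicates 1, 2 and 3, so the numbers were not taken to pair the samples, and GmbHLHm1 replicate 2 correlated best with empty vector replicate 1. The medians of the members and of both subunits moved by less than the spread between arrays in every alternative run, though their sign, near 0, differed between alternatives: the median over the members ran from -0.03 with median centring to 0.02 without GmbHLHm1 replicate 2. The count of separate pairs was between 20 and 27 and, with 1 array fewer, between 24 and 27.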

Other observations

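The farthest changes were those of B copies, while the typical sizes were alike, with a median of 0.035 over A and 0.036 over B genes. The 53 B genes ran from a log2 change of -0.26 for RPL4B to 0.17 for RPS7B, and 43 of them were under 0.1 in size. The 52 A genes ran from -0.12 for RPL9A to 0.12 for RPL8A, and 50 were under 0.1. The 17 genes without a copy letter ran from -0.13 for RPL29 to 0.08 for RPS15, with a median of 0.001. No test was made of this difference, which was noticed after the values were seen.

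The size of the change went with the brightness of the probe set. The 27 members at or below the 90th percentile of signal, RPL4B, RPS7B and RPL22B among them, had a median size of change of 0.061, and the 95 above it one of 0.032. Across the 122 members the size of the change and the mean log2 signal had a Pearson r of -0.31, and without RPL41A, the dimmest, -0.45 over 121. These genes share the same 6 arrays and are not independent, so the correlation is a description.

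The weights that limma gave the arrays, from how well each fitted its group over all genes, were 0.347, 0.512 and 1.25 for GmbHLHm1 replicates 1, 2 and 3 and 1.49, 1.64 and 1.84 for empty vector replicates 1, 2 and 3. The members with the widest GmbHLHm1 spread, RPS9A, RPS22A and RPL9A, were each lowest on GmbHLHm1 replicate 2, as were 76.2% of all members.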
